A study of Mus musculus with 18 samples.

Results

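The data are RNA-seq counts of whole mouse islets of Langerhans, read here for 10 genes that mark pancreatic stellate cells, fibroblasts and pericytes: Pdgfra, Pdgfrb, Thy1, Dcn, Lum, Postn, Itih5, Rgs5, Acta2 and Tagln. The genes were chosen by exact gene symbol, without the collagens, and are 10 of 53801 mouse genes in the deposited count tables. Each symbol was listed once, and all 10 genes passed the filter on low counts, which left 18364 genes to test. The islets came from 5-week-old mice fed normal chow, either wild type (WT) or heterozygous for the S64F variant of MafA (S64F/+), an amino acid change in a beta cell transcription factor that binds the insulin promoter. The 18 libraries form 4 groups, with 4 libraries of each genotype in males and 5 of each in females. The labels do not say whether a library is 1 animal or a pool, so the p-values measure the spread between these libraries, which may be partly technical.

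Stellate cells and fibroblasts are the matrix-producing cells of the pancreas, and pericytes are the contractile cells that wrap islet capillaries. Both kinds carry receptors for platelet-derived growth factor (PDGF). PDGF-AA and PDGF-CC act mainly through PDGFRα, which marks fibroblast-like cells, and PDGF-BB and PDGF-DD act mainly through PDGFRβ, which pericytes need in order to settle on endothelium. When stellate cells are activated they lose their retinoid droplets, take on smooth muscle actin and release matrix proteins. Quiescent stellate cells are known for vitamin A storage, desmin and glial fibrillary acidic protein.

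The promoters of 5 of the 10 genes were matched in a RefSeq table on GRCm38.p6 (Rgs5, Itih5, Postn, Pdgfra and Acta2, with 2 starts for Postn), as windows of 250 bases before to 50 bases after the start. The promoters of Acta2 and Postn are shown, 250 bases up to the start, since Acta2 is the classical serum response target among these genes and Postn is the gene with the largest fold change below. Acta2 lies on the minus strand of chromosome 19 and its stretch is chr19:34255374-34255623, mostly inside the gene's GENCODE M21 span, while Postn lies on the plus strand of chromosome 3 and its stretch is chr3:54360857-54361106. Capitals mark, in Acta2, both CArG boxes with 1 substitution in the A/T core, and in Postn the TATAAA box.
Acta2: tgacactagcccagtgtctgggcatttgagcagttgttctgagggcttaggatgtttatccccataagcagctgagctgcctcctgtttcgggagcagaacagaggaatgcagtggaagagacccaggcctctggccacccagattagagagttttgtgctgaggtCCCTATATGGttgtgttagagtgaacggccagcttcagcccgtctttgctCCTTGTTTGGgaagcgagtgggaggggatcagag
Postn: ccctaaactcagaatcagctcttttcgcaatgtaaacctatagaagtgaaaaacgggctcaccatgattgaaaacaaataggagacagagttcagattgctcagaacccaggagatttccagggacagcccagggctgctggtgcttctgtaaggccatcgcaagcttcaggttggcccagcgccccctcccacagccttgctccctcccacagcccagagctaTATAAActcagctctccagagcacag

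The CArG box is the recognition element of serum response factor, which controls contractile genes. Its strict form was in none of the 6 windows and in 1.63% of 32851 promoters of the same length, searched on both strands. The form with 1 G or C in the core was found at -84 to -75 and at -34 to -25 in Acta2, in no other matched member, and in 8.50% of promoters. TATAAA was found at -26 to -21 of this Postn start and in 13.6% of promoters. The MCAT element GGAATG was found at -146 to -141 of Acta2 and in 14.7% of promoters. CANNTG was found in Acta2, Pdgfra and Rgs5 and in 72.3% of promoters. The outer bases of the MAF recognition element, TGC and GCA with 7 bases between, were in no window and in 7.67% of promoters, and TGANTCA was in no window and in 7.81%. The same ends with 6 bases between, which is not the spacing of that element, were found at -117 to -106 of Pdgfra and in 8.44% of promoters. These are matches of letters only.

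Library totals ran from 19.3 to 108.7 M counts with a median of 42.4 M, and no replicate was a repeat of another. Mafa itself was lower in S64F/+ islets, at 197 ± 52.3 against 905 ± 80.8 CPM (SD, n = 4) in males and at 160 ± 49.8 against 639 ± 117 (SD, n = 5) in females. CPM are counts scaled to library size, and the counts do not show the allele. In bulk islets, more cells of a type and more RNA per cell cannot be told apart.

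In males, 8 of the 10 genes rose in S64F/+ islets and none fell. Called genes have an adjusted p below 0.05 by edgeR's quasi-likelihood test with Benjamini-Hochberg adjustment over all tested genes. In the same contrast 15.4% of all tested genes were called higher and 12.3% lower. The members' median log2 fold change was 2.22, and that of all tested genes was -0.03. For the 8 called genes all 4 S64F/+ libraries lay above all 4 WT libraries, as they did for 17.8% of all tested genes. Acta2 and Tagln, the smooth muscle genes, did not pass the test. In the plot of CPM by library the male S64F/+ points stand above the other groups for most of the genes.

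**Figure D1:**
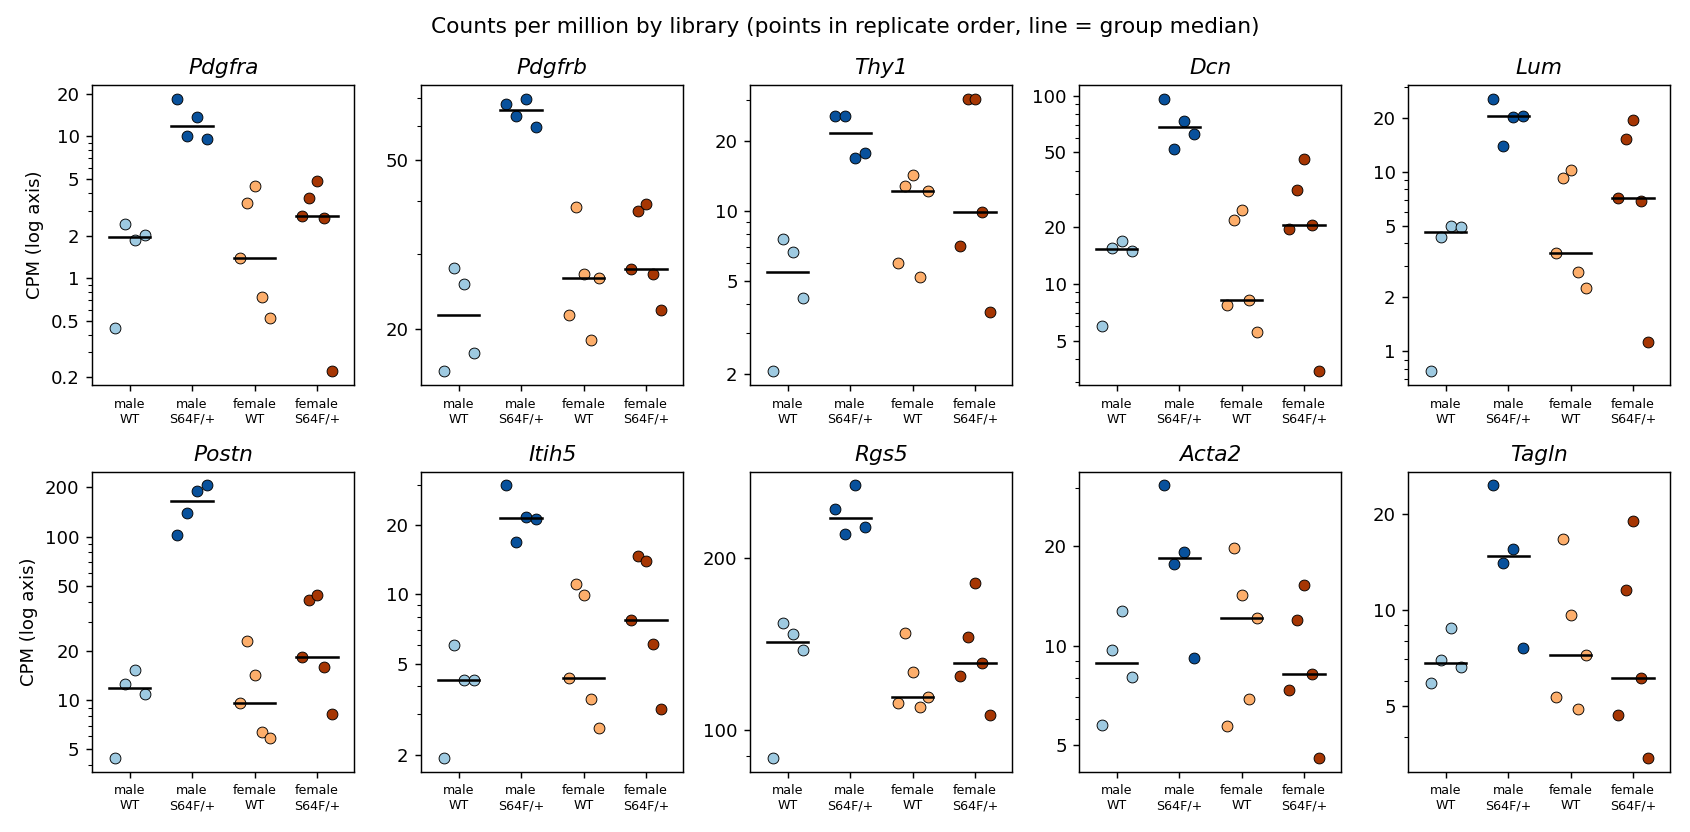
CPM of the 10 genes in each of 18 libraries, on log axes, with points in replicate order and a line at the group median. Postn lies between 103 and 206 CPM in male S64F/+ islets and at or below 43.7 in every other library, while the male groups of Acta2 and Tagln overlap.

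Pdgfrb (ENSMUSG00000024620, chromosome 18, 61045150 to 61085061 on GRCm38, protein coding) encodes the PDGF receptor β of pericytes and fibroblasts. It stood at 15.9, 27.9, 25.5 and 17.6 CPM in the male WT libraries and at 67.7, 63.5, 69.6 and 59.7 in the male S64F/+ libraries. The groups were far apart and the S64F/+ libraries lay close together. The log2 fold change was 1.58 ± 0.23 (SE, edgeR adjusted p = 7.49e-05), a 2.98-fold rise.

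Pdgfra (ENSMUSG00000029231, chromosome 5, 75152292 to 75198215) encodes the receptor α, carried by fibroblast-like cells. It was barely expressed in male WT islets, at 0.442, 2.43, 1.86 and 2.01 CPM, with 8 counts in replicate 1. The male S64F/+ libraries held 18.5, 10.1, 13.7 and 9.53 CPM. Every S64F/+ library exceeded the highest WT library. The log2 fold change between the groups was 2.91 ± 0.77 (SE, edgeR adjusted p = 0.0103). An antisense gene, Gm42802, overlaps Pdgfra, and it held 3 counts in all the male S64F/+ libraries together and 0 in the other groups.

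Thy1 (ENSMUSG00000032011, chromosome 9), a surface glycoprotein of fibroblasts that T lymphocytes and neurons also carry, rose as well. Its male WT libraries stood at 2.05, 7.60, 6.65 and 4.25 CPM and its S64F/+ libraries at 25.7, 25.7, 17.0 and 17.8 CPM. The log2 fold change was 2.05 ± 0.61 (SE, edgeR adjusted p = 0.0212). The call was lost without male WT replicate 1 (adjusted p = 0.0597) and without male WT replicate 4 (adjusted p = 0.0598).

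Postn (ENSMUSG00000027750, chromosome 3, 54361109 to 54391037) encodes periostin, a matrix protein released by activated fibroblasts, and had the largest rise of the 10. Male WT libraries held 4.42, 12.6, 15.2 and 11 CPM, and male S64F/+ libraries 103, 139, 191 and 206 CPM. Even the lowest S64F/+ library lay several times above the highest WT library. The log2 fold change was 3.86 ± 0.59 (SE, edgeR adjusted p = 0.000238), a 14.6-fold rise that ranked 68 among 18364 tested genes by log2 fold change.

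Dcn (ENSMUSG00000019929) and Lum (ENSMUSG00000036446) encode decorin and lumican, small leucine-rich proteoglycans that bind collagen fibrils. They are neighbours on chromosome 10, at 97479609 to 97518143 and 97565128 to 97572703. Dcn stood at 5.97, 15.6, 16.9 and 14.9 CPM in male WT and at 96.7, 51.9, 73.6 and 62.3 CPM in male S64F/+ libraries. Its log2 fold change was 2.41 ± 0.64 (SE, edgeR adjusted p = 0.0119). Lum stood at 0.774, 4.33, 5.02 and 4.94 CPM in male WT and at 25.7, 14.0, 20.4 and 20.5 CPM in male S64F/+ libraries. Its rise, 2.40 ± 0.73 (SE, log2, edgeR adjusted p = 0.0238), was nearly the same as that of Dcn. The Lum call was lost without male WT replicate 1 (adjusted p = 0.0585) and without male S64F/+ replicate 1 (adjusted p = 0.0532).

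Itih5 (ENSMUSG00000025780, chromosome 2, 10153571 to 10256529) encodes a heavy chain of the inter-alpha-trypsin inhibitor family, whose members bind hyaluronan in the matrix. Its male WT libraries held 1.94, 6.04, 4.22 and 4.25 CPM and its S64F/+ libraries 29.9, 17.0, 21.7 and 21.3 CPM. The groups did not overlap, and the log2 fold change was 2.43 ± 0.53 (SE, edgeR adjusted p = 0.00294).

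Rgs5 (ENSMUSG00000026678, chromosome 1, 169655501 to 169695813), a regulator of G-protein signalling that marks pericytes, had the smallest rise of the 8 called genes and the highest level of all 10. Male WT libraries held 89.3, 154, 147 and 138 CPM, and male S64F/+ libraries 243, 220, 267 and 226 CPM. The S64F/+ libraries lay close together, well above every WT library, and the log2 fold change was 0.86 ± 0.16 (SE, edgeR adjusted p = 0.000677), a 1.81-fold rise.

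Acta2 (ENSMUSG00000035783, chromosome 19, 34241090 to 34255590, minus strand) encodes smooth muscle α-actin, the standard sign of stellate cell activation. Its male WT libraries stood at 5.75, 9.72, 12.7 and 8.02 CPM and its S64F/+ libraries at 30.6, 17.7, 19.2 and 9.17 CPM. Replicate 4 of the S64F/+ group lay within the WT range. The log2 difference was 1.08 ± 0.44 (SE, edgeR adjusted p = 0.0838), and it passed the threshold without that replicate (1.31, adjusted p = 0.0412) and by DESeq2 (adjusted p = 0.0444).

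Tagln (ENSMUSG00000032085, chromosome 9, 45929619 to 45936058, minus strand) encodes transgelin, an actin-binding protein of smooth muscle. It stood at 5.92, 6.98, 8.78 and 6.65 CPM in male WT and at 24.7, 14.1, 15.6 and 7.58 CPM in male S64F/+ libraries. Again S64F/+ replicate 4 overlapped the WT libraries, and the log2 difference of 1.13 ± 0.51 did not pass (SE, edgeR adjusted p = 0.119). It passed with only the male groups in the fit (adjusted p = 0.0282) and with the replicate block in females (adjusted p = 0.0248). Tagln overlaps the 3' end of Pcsk7 and the antisense gene Gm48529, which held 1.36 to 1.90 CPM in male WT and 1.44 to 1.71 in male S64F/+ libraries. The strand setting of the counts is not given in the sources used here, so reads of overlapping genes cannot be told apart.

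In females none of the 10 genes was called in either direction by edgeR, and none by DESeq2. Among all tested genes 10.2% were called higher and 11% lower in female S64F/+ islets. For no member did all 5 S64F/+ libraries lie above all 5 WT libraries, which held for 5.28% of tested genes. The median log2 difference of the members was 0.47, with 9 of 10 values above 0. Only Postn had an unadjusted p below 0.05, at 0.0410. In the plot of genotype effects the female values lie to the left of the male values for all 10 genes.

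**Figure D2:**
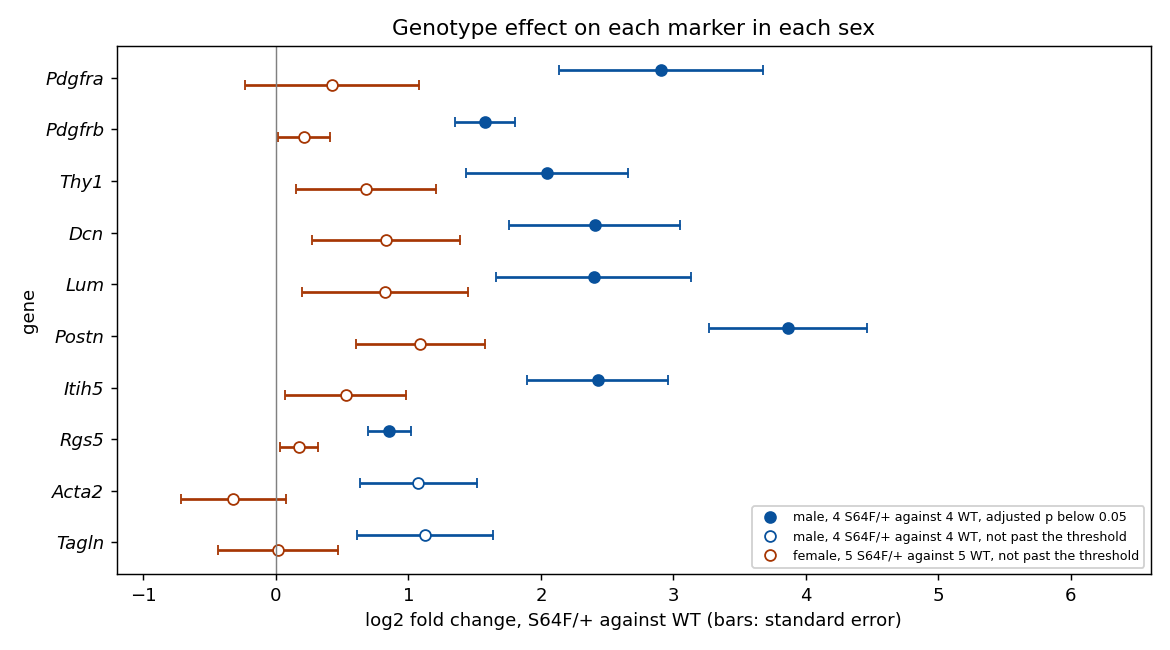
Log2 fold change of S64F/+ against WT for each gene with its standard error, in males (4 against 4 libraries) and females (5 against 5). Filled points passed an adjusted p of 0.05: 8 male and 0 female values did.

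Female Postn stood at 9.66, 22.9, 14.3, 6.35 and 5.88 CPM in WT and at 18.3, 41.2, 43.7, 15.9 and 8.28 CPM in S64F/+ libraries. Each S64F/+ library exceeded the WT library of the same number. The log2 difference was 1.09 ± 0.49 (SE, edgeR adjusted p = 0.128). The female replicate numbers met the criterion for pairs, though WT replicates 3 and 4 correlated better with an S64F/+ library of another number. With the replicate number as a block in females the adjusted p was 0.0229 at a log2 difference of 1.04, but no label gives this pairing.

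Female Pdgfrb held 21.6, 38.7, 26.9, 18.8 and 26.3 CPM in WT and 27.6, 37.9, 39.4, 27.0 and 22.2 CPM in S64F/+ libraries. The groups overlapped almost fully, with a log2 difference of 0.21 ± 0.20 (SE, edgeR adjusted p = 0.488). Female Pdgfra ranged widely, at 1.4, 3.39, 4.47, 0.734 and 0.520 CPM in WT and 2.73, 3.66, 4.82, 2.67 and 0.220 CPM in S64F/+ libraries. Its log2 difference was 0.42 ± 0.66 (SE, edgeR adjusted p = 0.700).

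The matrix genes of females lay between these, with wide errors. Dcn ranged from 5.57 to 24.8 CPM in WT and from 3.43 to 46.2 CPM in S64F/+ libraries, and Lum from 2.24 to 10.2 and from 1.14 to 19.5 CPM. Dcn differed by 0.83 ± 0.56, Lum by 0.82 ± 0.63 and Itih5 by 0.53 ± 0.45 (log2, SE), none past the threshold. Thy1 differed by 0.68 ± 0.53 and Rgs5 by 0.17 ± 0.14. Acta2 was the only member with a negative value, -0.32 ± 0.39, at 5.69 to 19.7 CPM in WT and 4.56 to 15.2 in S64F/+ libraries. Tagln differed by 0.02 ± 0.46, a value whose sign changed with library scaling.

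The male minus female genotype effect was positive for all 10 genes, with a median of 1.48 on the log2 scale against 0.01 over all tested genes. Since the members tended to move together by library, as described below, the 10 signs in this or any contrast here are not separate observations. It was called for 2 of 10, Pdgfrb (1.36 ± 0.30, edgeR adjusted p = 0.0203) and Postn (2.77 ± 0.73, edgeR adjusted p = 0.0470). Of all tested genes 2.87% were called with a larger value in males. The Pdgfrb call was lost without male WT replicate 4 (adjusted p = 0.0547), and the Postn call was lost in 13 of 18 repeats with a single library removed (adjusted p 0.0514 to 0.0981 in those), each male library and female WT replicates 1, 2 and 3 and S64F/+ replicates 4 and 5 among them. DESeq2 called 4 members, adding Itih5 (adjusted p = 0.0479) and Rgs5 (adjusted p = 0.0211). With the replicate block in females 6 were called, with Pdgfra and Dcn besides those 4. Over all tested genes the count called larger in males also rose, from 527 by edgeR to 1107 by DESeq2 and 1065 with that block. For the remaining genes a difference between the sexes did not pass: Acta2 had 1.4 ± 0.59 (adjusted p = 0.161), Lum 1.57 ± 0.95 and Thy1 1.37 ± 0.79.

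Between the sexes, none of the 10 genes differed in WT islets by edgeR or by DESeq2, and none had an unadjusted p below 0.05. Of all tested genes 2.36% differed in WT. The largest WT value was that of Thy1, at -0.95 ± 0.58 (male minus female, log2, SE). Within S64F/+ islets 4 members were higher in males, as were 8% of all tested genes. They were Postn (2.66 ± 0.52, edgeR adjusted p = 0.00528), Pdgfra (2.22 ± 0.69, adjusted p = 0.0390), Pdgfrb (1.08 ± 0.21, adjusted p = 0.00387) and Rgs5 (0.80 ± 0.15, adjusted p = 0.00319). For these 4 and for Dcn and Itih5 all 4 male S64F/+ libraries lay above all 5 female S64F/+ libraries, a pattern that 7.91% of tested genes showed. The Pdgfra call was lost in 7 of 18 repeats with a single library removed, namely without any of the 4 male S64F/+ libraries or without female S64F/+ replicate 1, 2 or 4. It was also lost with no filter (adjusted p = 0.0844) and with only the groups compared (adjusted p = 0.0516). DESeq2 called Dcn (adjusted p = 0.0353) and Itih5 (adjusted p = 0.0358) as well. Of all tested genes it called 2059 higher in males, against 1470 by edgeR. Thy1 was not called between the sexes in S64F/+ islets, at a log2 difference of 0.41. Its 17.0 to 25.7 CPM in males lay inside a much wider female range of 3.70 to 30.6 CPM.

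Levels can be compared between genes only per length. The deposited FPKM, which scale a count by depth and length, use 1 length per gene, and for 9 of the 10 genes that length equals the sum of all annotated transcripts in GENCODE M21, with Acta2 the exception. For Pdgfra it is 24706 bases, where the longest coding transcript has 6834, and for Postn 20478 bases against 3205. The count per kilobase of the longest coding transcript, scaled by depth in the same way, was therefore also computed. By both scales Rgs5 was first and Pdgfra last in all 4 groups.

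Per kilobase of the longest coding transcript, Rgs5 stood at 30.7 ± 7.77 in male WT and 64.6 ± 6.19 in male S64F/+ islets (SD, n = 4), while Pdgfra stood at 0.236 ± 0.127 and 2.11 ± 0.719. Postn moved from the sixth place in male WT islets, at 3.22 ± 1.43, to the second place in male S64F/+ islets, at 54.8 ± 15.1. Dcn held the second place in male WT islets at 7.22 ± 2.81 and the third in male S64F/+ islets at 44.9 ± 13. There Postn lay within the spread of both of its neighbours, while Dcn stood well above the next gene, Thy1, at 13.8 ± 3.36. The deposited FPKM placed Acta2 second there, at 12 ± 5.76, and Postn in the fifth place, at 8.58 ± 2.37 (SD, n = 4), so that order turns on the length used. Folds between groups do not, since the length of a gene cancels.

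In 3 of the 4 groups the same libraries were low or high for all 10 members, and in male S64F/+ islets the same libraries were high for most. Male WT replicate 1 was the lowest of its group for 10 of 10 members and female S64F/+ replicate 5 for 10 of 10. The former had the fewest counts of all libraries, 19.3 M, and the latter had 57.4 M. How often a library was the lowest over all tested genes was not counted. Female WT replicates 2 and 3 were the top 2 of their group for all 10, and so were female S64F/+ replicates 2 and 3. In male S64F/+ islets replicates 1 and 3 were in the top 2 for 9 and 8 members, a less strict order. Replicate 1 was highest for 6 members but lowest for Postn, and replicates 2 and 4 were each lowest for 4 and highest for 1. In female S64F/+ islets the highest library exceeded the lowest 21.9-fold for Pdgfra, 17.2-fold for Lum and 13.5-fold for Dcn. For the pericyte gene Rgs5 it was 1.70-fold and for Pdgfrb 1.78-fold in the same libraries. In male S64F/+ islets the ratios were 3.33 for Acta2 and 3.26 for Tagln, above the 1.94 for Pdgfra, 1.86 for Dcn, 1.84 for Lum, 1.22 for Rgs5 and 1.17 for Pdgfrb.

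**Figure D3:**
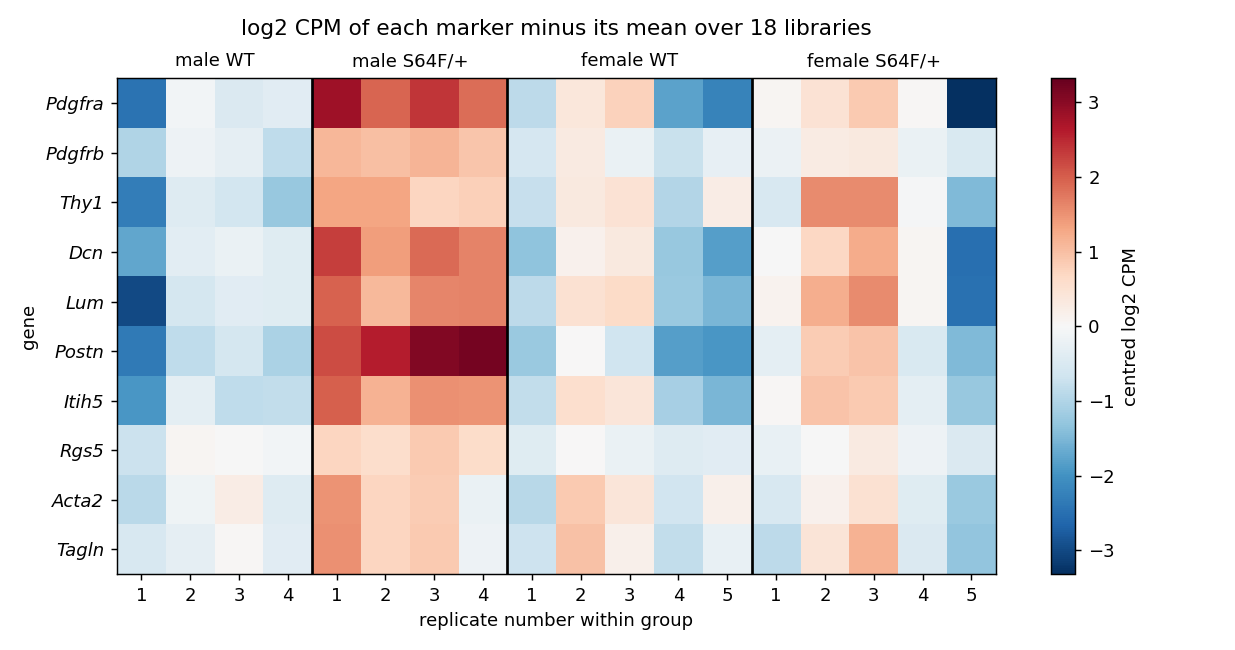
Log2 CPM of each gene minus its mean over 18 libraries, with genes as rows and libraries as columns grouped by sex and genotype. Male WT replicate 1 and female S64F/+ replicate 5 are the lowest of their groups in every row, and all 4 male S64F/+ columns are above the mean in 8 of the 10 rows.

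Within a library the ratio of 2 counts does not depend on library scaling. Ratios to Pdgfrb were compared by two-sided exact permutation tests over libraries, with 4 genes in each sex and Benjamini-Hochberg adjustment over the 8 tests. The smallest p allowed is 0.0286 in males and 0.00794 in females. None of the 8 passed after adjustment. Even with all 4 male tests at their minimum, none would pass unless a female test did too.

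The log2 ratio of Rgs5 to Pdgfrb was 2.46 to 2.97 in male WT and 1.79 to 1.94 in male S64F/+ libraries. All 4 S64F/+ values lay below all 4 WT values, a difference of -0.74 (exact p = 0.0286, adjusted 0.114). The log2 ratio of Pdgfra to Pdgfrb was -5.08 to -3.11 in male WT and -2.66 to -1.87 in male S64F/+ libraries. These groups were also apart, with a difference of 1.49 (exact p = 0.0286, adjusted 0.114), which is a 2.81-fold larger ratio. Dcn to Pdgfrb differed by 0.86 (exact p = 0.0571, adjusted 0.137) and Acta2 to Pdgfrb by -0.61 (exact p = 0.0857, adjusted 0.137), with male groups that overlapped.

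In females the same differences were 0.14 for Pdgfra, -0.07 for Rgs5, 0.45 for Dcn and -0.51 for Acta2 (exact p = 0.0794 for Acta2 and 0.484 or above for the others). Of the genes not tested in this way, the male ratio of Postn to Pdgfrb was 5.08-fold larger in S64F/+ libraries, that of Lum 2.10-fold, Itih5 1.87-fold and Thy1 1.5-fold, while Tagln was at 0.660 of its WT ratio. These 5 were described after their values were seen.

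**Figure D4:**
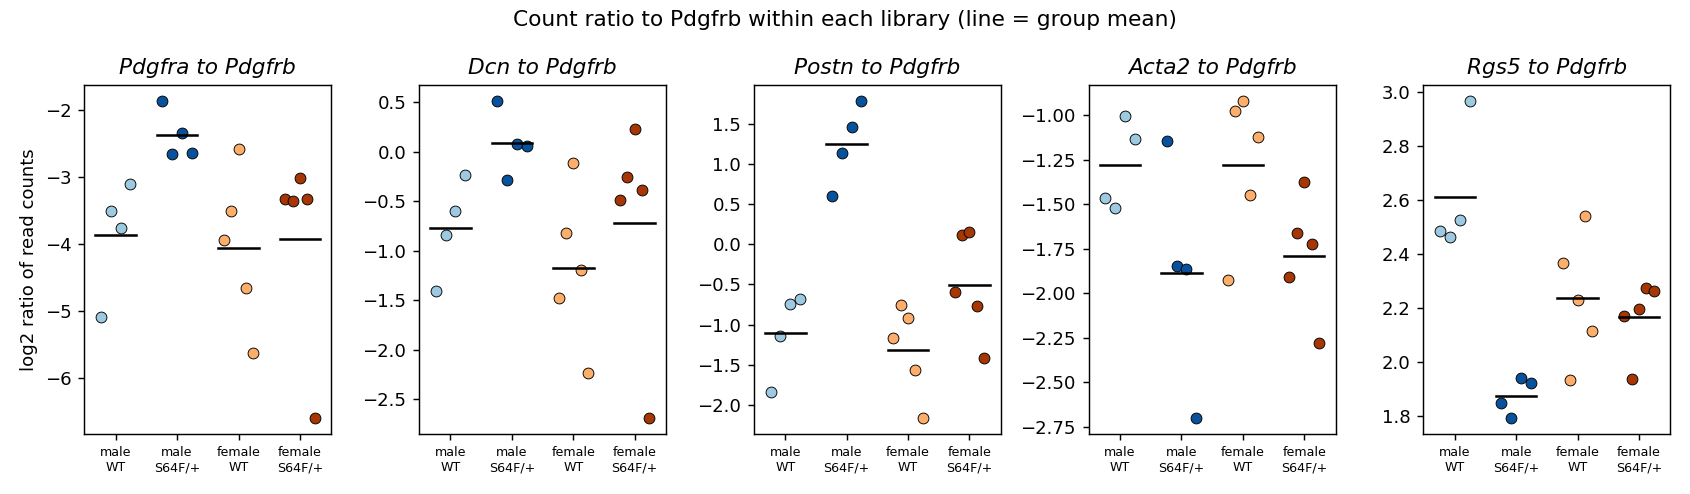
Log2 ratio of the counts of 5 genes to those of Pdgfrb in each library, with a line at the group mean. In males the S64F/+ libraries lie above the WT libraries for Pdgfra and Postn and below them for Rgs5, while the female groups overlap for all 5.

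Other genes of the same pathway and cells were read from lists, each given with the count called in males and the median log2 fold change, beside -0.03 over all tested genes. Of all tested genes 15.4% were called higher in males and 10.2% in females. Of 5 PDGF ligand genes (Pdgfa, Pdgfb, Pdgfc, Pdgfd and the receptor-like Pdgfrl), 3 rose and 0 fell in males, with a median of 0.92. Pdgfd, a ligand of PDGFRβ, rose from 3.98 ± 0.770 to 12.7 ± 3.93 CPM (SD, n = 4), and Pdgfb, the endothelial ligand that recruits pericytes, from 13 ± 3.16 to 24.7 ± 1.72 CPM. Pdgfc, a ligand of PDGFRα, rose by 1.96 ± 0.48 (log2, SE). Pdgfa differed by -0.39 ± 0.16 and was not called. In females 0 of the 5 were called by edgeR or DESeq2, with 1 at an unadjusted p below 0.05.

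Of 12 further pericyte genes 11 rose in males and 0 fell, with a median of 0.97. They include Cspg4, the NG2 proteoglycan (8.79 ± 1.61 to 21.7 ± 2.23 CPM), Notch3, a mural receptor (34.3 ± 9.30 to 70.7 ± 11.6 CPM, SD, n = 4), and Abcc9, a potassium channel subunit (log2 fold change 1.71 ± 0.32). The count was 7 without male WT replicate 4. In females 1 of 12 rose, Kcnj8, the channel partner of Abcc9 (1.29 ± 0.39, edgeR adjusted p = 0.0235), and 0 did without female WT replicate 1, 4 or 5 or S64F/+ replicate 3. That count is near the 10.2% of all tested genes called higher in females.

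Of 11 contractile genes 9 rose in males, with a median of 1.18. The male count was as low as 6 when 1 library was left out, without male WT replicate 1 or 4 among others. Cald1 (caldesmon) rose from 36.1 ± 1.84 to 99.6 ± 14.2 CPM and Mylk (myosin light chain kinase) from 11.3 ± 5.03 to 59.5 ± 10.2 CPM (SD, n = 4), and Tpm1 (tropomyosin) by 0.74 ± 0.10. In females 2 rose, Cald1 by 0.67 ± 0.15 and Tpm1 by 0.45 ± 0.09 (log2, SE).

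Of 7 genes of retinoid storage and intermediate filaments 6 were tested, of which 5 rose in males with a median of 1.20. Des (desmin) rose by 1.5 ± 0.32 and Vim (vimentin) by 1.82 ± 0.46 (log2, SE). In females 2 rose, among them Lrat, which makes retinyl esters. Lrat was low throughout, with 14 counts in the female WT group, at 0.0180 to 0.118 CPM, and 0.365 to 3.79 CPM in female S64F/+ libraries (edgeR adjusted p = 0.0290). The female count was 0 without WT replicate 1 or 5, and 1 without WT replicate 2, 3 or 4 or S64F/+ replicate 1, 2 or 3.

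Matrix genes followed in males. Of 11 small leucine-rich proteoglycans besides Dcn and Lum 8 were tested and 5 rose, with a median of 2.22, among them Prelp (2.39 ± 1.04 to 19.7 ± 7.83 CPM, SD, n = 4), Bgn (biglycan, 2.40 ± 0.51, log2, SE) and Ecm2 (1.49 ± 0.34). Of 20 other non-collagen matrix genes 13 rose, with a median of 1.74, among them Fn1 (fibronectin, 6.27 ± 3.15 to 79.0 ± 23.9 CPM), Sparc (157 ± 38.2 to 437 ± 64.4 CPM, SD, n = 4) and Tgfbi (1.62 ± 0.34, log2, SE). In females edgeR called 0 genes of either list, with 0 and 1 at an unadjusted p below 0.05, and DESeq2 called 0 and 1. The male count of proteoglycans was 3 without WT replicate 1 or 4 or S64F/+ replicate 1 or 3, and 8 with plain library totals. That of the other matrix genes was 10 without male WT replicate 1.

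Of 12 mesenchymal transcription factors 9 were tested and 6 rose in males, with a median of 1.26, among them Tbx2 (1.31 ± 0.20), Prrx1 (2.05 ± 0.47) and Heyl (1.26 ± 0.32, log2, SE). The count was 3 without male WT replicate 4 or S64F/+ replicate 1. In females edgeR called 0, with 1 at an unadjusted p below 0.05, and DESeq2 called 1. Of 11 genes of hyaluronan and the inter-alpha-trypsin inhibitor 8 were tested, and 5 rose in males and 4 in females (2 without female WT replicate 5). Ambp, which encodes the light chain bikunin, rose from 22.6 ± 0.911 to 45.1 ± 3.91 CPM in males (SD, n = 4) and from 27.8 ± 1.99 to 43.6 ± 5.13 in females (SD, n = 5). Hapln1, a hyaluronan link protein, rose by 0.98 ± 0.17 in males and by 1.47 ± 0.15 in females (log2, SE). Cd44, the hyaluronan receptor, rose by 0.84 ± 0.14 in males.

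**Figure D5:**
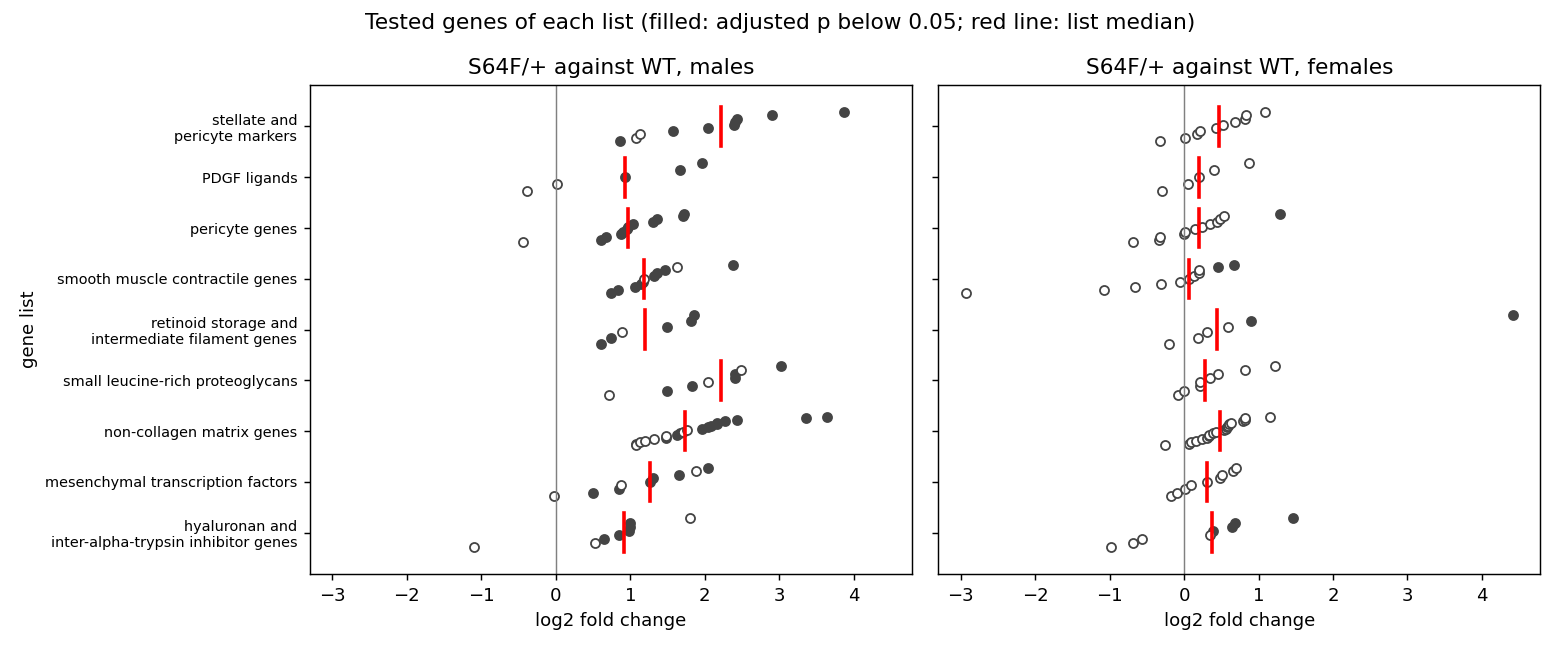
Log2 fold change of S64F/+ against WT for every tested gene of each list, in males and females, filled where the adjusted p was below 0.05 and with a red line at the list median. Male medians lie between 0.91 and 2.22, and female medians between 0.07 and 0.49.

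The profiles most like the members' mean over the 18 libraries, by the root mean square difference of centred log2 CPM among 13095 genes, were those of Vim (0.158), Fstl1 (0.205), Bgn (0.208), Angptl2 (0.225), Antxr1 (0.227), Ddr2 (0.238), Cygb (0.249) and Pcolce (0.249). Since these genes were chosen for a like profile over the same libraries, their male log2 fold changes of 1.67 to 2.40 are a description. Of the members themselves Itih5 was nearest to the mean profile (0.262) and Postn farthest (0.827).

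Markers of other cells moved in the same libraries. Summed over 10 endothelial markers, the level was 466 to 635 CPM in male WT and 865 to 1006 CPM in male S64F/+ libraries, and 8 of 10 genes rose, among them Pecam1 (57.5 to 169 CPM), Plvap and Cdh5. Without male WT or S64F/+ replicate 1 the count was 5. In females the sums were 529 to 737 and 561 to 776 CPM, and 0 of 10 were called by edgeR or DESeq2, with 4 at an unadjusted p below 0.05. Of 10 macrophage markers 6 rose and 1 fell in males and 5 rose in females, with sums of 88.4 to 128 and 127 to 164 CPM in the male groups and 80.2 to 115 and 102 to 179 CPM in the female groups. Cd68, C1qb and C1qc rose in both sexes. Of 9 Schwann cell markers 4 rose in males, including Gfap, which quiescent stellate cells also carry, Ngfr and Gfra3, and the sums were 34.8 to 39.4 and 79.2 to 91.9 CPM. Without female S64F/+ replicate 3 the count was 7. In females 1 of 9 rose, Gfra3 (1.35 ± 0.14, edgeR adjusted p = 1.55e-06), a count near the 10.2% called higher over all tested genes. The female Schwann cell sums did not overlap either, at 31.6 to 49.1 and 51.4 to 113.6 CPM. Of 8 ductal markers 5 rose in males, with Spp1, Sox9 and Krt19 first, and the sums were 321 to 386 and 548 to 703 CPM. In females 2 of 8 rose, Spp1 by 1.37 ± 0.19 and Sox9 by 0.95 ± 0.21 (log2, SE), with sums of 340 to 401 and 392 to 515 CPM.

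The mesothelial list fell in sum, from 152 to 216 to a range of 16.6 to 58.1 CPM in males and from 83.3 to 226 to a range of 20.5 to 60.1 CPM in females, through Msln (mesothelin, -2.75 ± 0.40 in males and -2.18 ± 0.35 in females, log2, SE), the 1 called gene of 5. The list median was 0.99 in males, opposite in sign to Msln. Of 7 T lymphocyte markers 4 were tested, with sums of 1.41 to 3.10 and 2.04 to 4.32 CPM in the male groups and of 1.72 to 2.86 and 3.54 to 4.78 CPM in the female groups. Cd4 rose by 1.5 ± 0.42 in males, and Cd4 and Lck rose in females. None of 4 adipocyte markers was tested, with sums at or below 2.80 CPM. None of 6 acinar markers was called by edgeR or DESeq2 in either sex, with 0 at an unadjusted p below 0.05, and their sums overlapped, at 2235 to 22593 CPM in male WT and 3357 to 13992 CPM in male S64F/+ libraries. The 8 beta cell markers summed to 210861 to 288231 CPM in male WT and 126041 to 140335 CPM in male S64F/+ libraries, and 7 of them fell, among them Ucn3, Ins1 and Slc2a2. In females 6 of 8 fell, with sums that overlapped. The part of these cells in the results on the members was not tested.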

How the data were processed

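The authors deposited raw counts per gene and library, 1 table per group. The submitters' processing notes list GRCm38 and, with no version or role, the tools FastQC, STAR, MultiQC, DESeq2 and featureCounts. FPKM values, also deposited by the authors, equal the count over the column total and 1 length per gene, and were used only to compare levels between genes. Of 53900 features, 99 spike-ins with 0 counts were left out.

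Counts were tested in R 4.3.3 with edgeR 4.0.16 (filterByExpr with minimum count 10 and total 15, TMM scaling, robust quasi-likelihood fit, 1 coefficient per group, all 18 libraries), two-sided, with Benjamini-Hochberg adjustment within each contrast and a threshold of 0.05. The test was checked on simulated data. CPM values use TMM-scaled totals. Count ratios had 0.5 added to each count. The SE is the log2 fold change divided by the square root of F.

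The members, lists and alternatives were chosen with earlier results of these data known. Named genes are the members, Mafa, up to 3 called genes per list with the smallest p in males and 2 in females, and the 8 most alike profiles of at least 1 CPM. A gene that this rule selects is not reported here. Called counts under alternatives used DESeq2 1.42.0 and other scalings, filters and designs. The search for the substituted CArG box and the replicate block in females only were added after the data were seen. Gene positions came from GENCODE M21, and promoters from RefSeq.

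Replicate numbers recur in WT and S64F/+. The correlation of deviations between same-numbered libraries was 0.110 to 0.418 over the 5 female pairs, each above the criterion of 0.1, and -0.249 to 0.189 in males. Only the female numbers met the criterion in every pair and were therefore also given a block of their own, a reading that no label gives. As alternatives, the block in both sexes and the signs permuted within replicate numbers paired the male libraries as well.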

Additional observations from a re-analysis of the deposited data

Results flagged for a closer look

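Among 76 groups of libraries in which the most extreme value was compared with the rest, 5 stood apart, where chance gives about 1 in 20. Lum in male WT replicate 1 was 0.774 CPM, below the other 3 libraries. The log2 ratio to Pdgfrb was -6.60 for Pdgfra and -2.69 for Dcn in female S64F/+ replicate 5, below the rest of that group. It was 2.97 for Rgs5 in male WT replicate 4, above the rest, and -2.94 for Thy1 in male WT replicate 1, below the rest. Those 2 low libraries were also the lowest of their groups for all 10 markers.

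By the test of the difference itself, the genotype effect was larger in males than in females for 2 markers, Pdgfrb by 1.36 and Postn by 2.77 on the log2 scale. Over all tested genes 2.87% were called in that direction. Of 26 named genes of the companion lists, most of them picked for the smallest p in males, 9 were called too, and since that choice favours a larger male value they are given as a description: Pdgfb by 0.73, Pdgfd by 1.27, Cspg4 by 1.64, Notch3 by 1.36, Mylk by 2.18, Cald1 by 0.80, Prelp by 2.67, Sparc by 1.15 and Tbx2 by 1.29. For Cspg4 and Notch3 the female value was below 0, at -0.34 and -0.32, and was not called.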

How the results depend on the processing

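With 4 or 5 libraries a group the precision is limited. Counts were low throughout for Lrat and in several libraries for Pdgfra, down to 8 in male WT replicate 1. Lum had 14 counts in that library and at least 62 in every other. In males 6 to 9 members were called when 1 library was left out, the fewest without male WT replicate 1, and 8 to 10 under the other settings. With all libraries kept, settings that called 9 or 10 members also called more genes higher in males than the 2819 of the main fit. Those were 3117 with the replicate block in females only, 3170 by DESeq2, 3292 with only the groups compared and 4248 with plain totals. All 10 male values stayed above 0 throughout. Plain library totals moved the median of all genes to 0.19 in the male contrast, where TMM gave -0.03, and the share of called genes that were higher from 55.6% to 86.4%. For the male minus female effect that share went from 64.2% to 97.2%, and for males against females in S64F/+ islets from 49.6% to 88.1%.

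The count of members whose effect differed between the sexes was 2, against 1 with no filter, 4 by DESeq2, 4 with the replicate block in both sexes and 6 with it in females only. It was 0 to 3 when 1 library was left out, the lowest without male WT replicate 4. Over all tested genes 527 were called larger in males, against 1107 by DESeq2. That number was 626 with the block in both sexes, 1065 with it in females only and 367 of 33562 with no filter. The replicate block, in both sexes or in females only, called 1 member higher in female S64F/+ islets, Postn, where no other setting did. Male Acta2 and Tagln also passed with the block in females only (adjusted p = 0.0471 and 0.0248). For companion lists in males, 5 proteoglycans rose, against 3 with no filter and 8 with the block in females only or only the groups compared, and 4 Schwann cell markers, against 8 with either block or only the groups compared. In females the last of these gave 2 hyaluronan genes in place of 4, 3 macrophage markers in place of 5, 0 pericyte genes in place of 1 and 1 retinoid or filament gene in place of 2. The cause of these changes was not tested. No sex contrast could be fitted with the block, since the numbers are nested in sex, and the restriction to the groups compared does not apply to the male minus female effect.

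Values near 0 changed sign. Female Tagln was -0.054 with plain totals, -0.10 with either replicate block and -0.46 to 0.40 when 1 library was left out. The WT sex difference of Dcn was 0.000533 with DESeq2 size factors. When 1 library was left out it ran from -0.21 to 0.30, that of Pdgfra from -0.51 to 0.17, that of Postn from -0.31 to 0.29 and that of Tagln from -0.46 to 0.075. The female difference in log2 ratio to Pdgfrb then ran from -0.25 to 0.80 for Pdgfra and from -0.15 to 0.0076 for Rgs5. With signs permuted within replicate numbers the ratio tests had adjusted p of 0.25 to 0.75, from too few pairs to pass the threshold.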
